A study of Danio rerio with 2 samples.

Results

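Among 6 genes of the enteric and autonomic branches of the neural crest, the receptor gene ret was 3.06-fold higher in crestin EGFP-positive cells than in EGFP-negative cells of the zebrafish embryo. The gfra1 pair divided, with gfra1a 1.46-fold higher and gfra1b 4.20-fold lower. Phox2a was above 0 in the EGFP-positive cells alone, and phox2ba and phox2bb were listed at 0 in both fractions. The genes were chosen by name, with earlier results of these data known. The deposited table held a row for each of the 6 among its 14428 rows.

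Zebrafish (Danio rerio) embryos of the genotype crestin_1kb:EGFP were used, in which EGFP, a fluorescent protein, is made under a fragment of the neural crest gene crestin. At 15 SS, a somite stage, the embryos were dissociated and sorted into about 5500 EGFP-positive cells, labelled as crestin-positive neural crest, and about 100000 EGFP-negative cells. Both fractions carried the transgene, and each gave 1 library of total RNA. The sort marks cells in which the crestin fragment was active, and the EGFP-negative fraction holds the other cells of the embryo. The number of embryos was not given in the labels.

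The neural crest gives rise to the enteric nervous system of the gut and to the autonomic ganglia. Ret encodes a receptor tyrosine kinase that does not bind its ligand alone. Glial cell line-derived neurotrophic factor (GDNF) binds the co-receptor GFRA1, held at the cell surface by a lipid anchor, and the complex activates RET, which drives survival, division and migration of enteric precursors. The PHOX2 genes encode paired-like homeodomain factors required for autonomic neurons. Zebrafish embryos without ret or phox2bb function have few or no enteric neurons. Zebrafish ret is also known in the pronephric duct, in motor and sensory neurons and in cranial ganglia. Enteric precursors enter the gut later than the stage sampled here.

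Values are FPKM (fragments scaled by gene length and by the mapped fragments of the library), so levels of different genes are per length. With 1 library per group there is no spread between samples and no test, and differences are described by size. A log2 ratio is log2(FPKM + 1) in EGFP-positive minus that in EGFP-negative cells, and a fold is the plain quotient of the deposited values. Genes that reached 1 FPKM in at least 1 library were counted, and those 2-fold or more apart on the log2(FPKM + 1) scale were called. A counted gene that is at 0 in 1 library is always called under this rule. Counts are therefore also given over genes above 0 in both libraries, where 17.8% of all 7449 such genes were at least 2-fold higher and 16.5% lower. An exact 0 can be a failed estimate, so no fold is given against one. In these sorted pools, fewer cells of a type and less RNA per cell cannot be told apart.

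The sort was checked on 3 crest markers. Sox10, foxd3 and tfap2a, transcription factors of the early crest, summed to 421.8 FPKM in EGFP-positive cells and 67.9 FPKM in EGFP-negative cells, and none was at 0 in either. Of all genes, 8439 were above 0 in EGFP-positive cells and 8951 in EGFP-negative cells.

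Of the 6 genes, 4 reached 1 FPKM in either library. Of these 4, 2 were at least 2-fold higher (ret and phox2a), where 22.9% of all 9685 genes counted were, and 1 was at least 2-fold lower (gfra1b), where 26.5% of all genes were. The fourth, gfra1a, lay between. The call of phox2a was fixed by its 0 in EGFP-negative cells. Of the 3 genes above 0 in both libraries, 1 was higher (ret) and 1 lower, where 17.8% and 16.5% of all such genes were. The median log2 ratio was 1.01 over the 4 genes and 0.53 over these 3, against -0.04 over all genes counted and 0.03 over those above 0 in both. With this few genes and this much background, the counts describe the genes and do not set them apart from others.

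**Figure D1:**
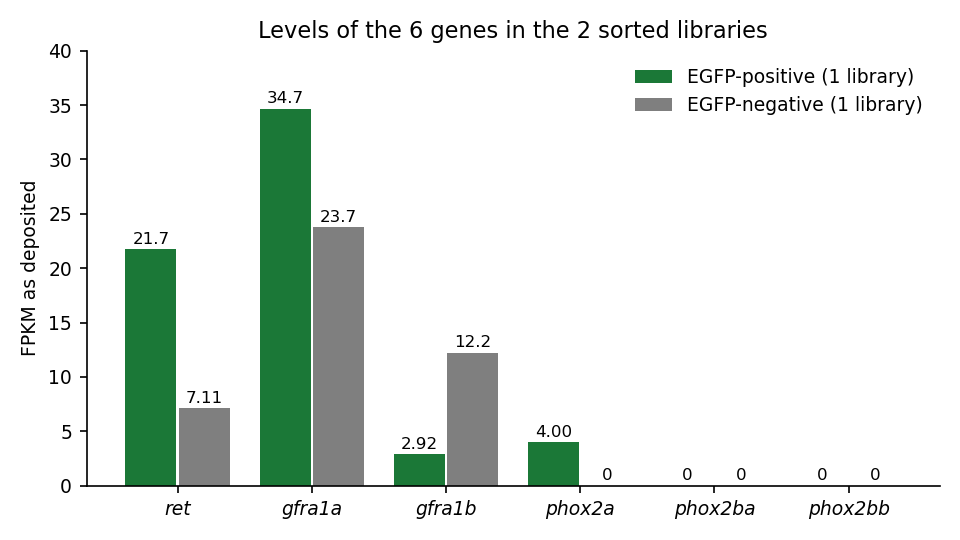
Bars give the deposited FPKM of each of the 6 genes in EGFP-positive cells (green) and EGFP-negative cells (grey), 1 library each and so without error bars. Ret and gfra1a stand higher in EGFP-positive cells, gfra1b stands lower there, at 2.92 FPKM against 12.2 FPKM in EGFP-negative cells, phox2a is above 0 in EGFP-positive cells alone, and phox2ba and phox2bb are at 0 in both.

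The receptor kinase gene ret stood at 21.7 FPKM in EGFP-positive cells and 7.11 FPKM in EGFP-negative cells, a log2 ratio of 1.49. Its ratio was higher than that of 83.8% of all genes counted and, among genes above 0 in both libraries, than that of 90.1%. Many genes differed as much. Of 2613 other genes above 0 in both libraries whose geometric mean lay within 2-fold of that of ret, 12.4% had a log2 ratio as high or higher. In level, ret ranked 4222nd of the 14428 rows in EGFP-positive cells and 6655th in EGFP-negative cells. It was thus close to the median of the genes above 0 in the EGFP-positive cells.

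The difference in ret was smaller than that of the crest markers. The FPKM quotient in EGFP-positive against EGFP-negative cells was 9.01 for sox10 (146.8 against 16.3 FPKM), 12.3 for foxd3 (86.7 against 7.04 FPKM) and 4.22 for tfap2a (188.2 against 44.6 FPKM). Per length, ret amounted to 14.8% of the sox10 level in EGFP-positive cells and 43.6% in EGFP-negative cells. Against foxd3 it amounted to 25.04% in EGFP-positive cells and 101% in EGFP-negative cells, so ret and foxd3 stood at nearly the same level in the EGFP-negative cells.

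**Figure D2:**
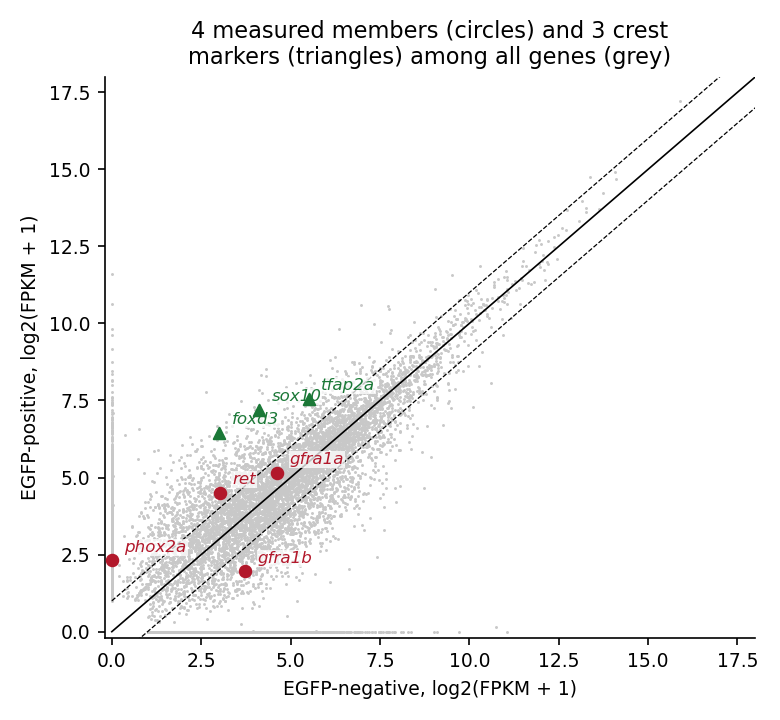
Each grey point is a gene, placed by log2(FPKM + 1) in EGFP-positive cells (y axis) and in EGFP-negative cells (x axis). The solid line marks equal values and the dashed lines a difference of 2-fold. Ret (red circle) lies above the upper dashed line but nearer to it than sox10 and foxd3 (green triangles), gfra1a lies between the lines and gfra1b below them, and phox2a lies on the y axis because it was listed at 0 in EGFP-negative cells.

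Gfra1a and gfra1b encode the zebrafish copies of the GDNF co-receptor GFRA1. Gfra1a, the most abundant of the 6 genes in both libraries, stood at 34.7 FPKM in EGFP-positive cells and 23.7 FPKM in EGFP-negative cells, a log2 ratio of 0.53. Of 2767 other genes of similar level, 29.9% had a log2 ratio as high or higher. Gfra1b stood at 2.92 FPKM in EGFP-positive cells and 12.2 FPKM in EGFP-negative cells, a log2 ratio of -1.76. Of 1844 other genes of similar level, 9.16% had a log2 ratio as low or lower. Gfra1b was the only one of the 6 genes that was lower in the EGFP-positive cells.

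Summed, the co-receptor pair was nearly equal in both fractions, at 37.6 FPKM in EGFP-positive cells and 36.0 FPKM in EGFP-negative cells. The ratio of these sums was 1.04 as deposited and 0.926 after rescaling to equal sums without rn7sk, an abundant small nuclear RNA, so its direction depends on the scaling. The make-up of the sum differed. Gfra1a supplied 92.2% of it in EGFP-positive cells and 66.0% in EGFP-negative cells, and gfra1b supplied 7.76% in EGFP-positive cells and 34.03% in EGFP-negative cells. The ratio of gfra1a to gfra1b was 11.9 in EGFP-positive cells and 1.94 in EGFP-negative cells, a 6.13-fold difference that no scaling between libraries can alter. Relative to the summed co-receptors, ret stood at 0.578 in EGFP-positive cells and 0.198 in EGFP-negative cells, 2.93-fold apart.

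**Figure D3:**
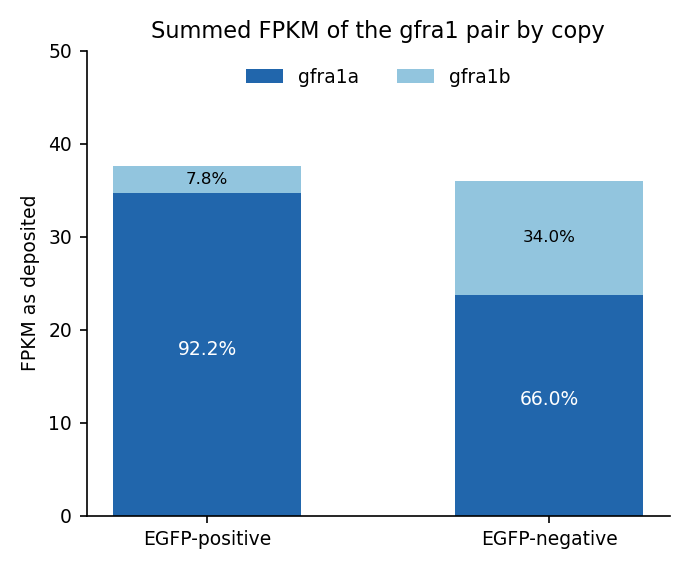
Stacked bars give the FPKM of gfra1a (dark blue) and gfra1b (light blue) in EGFP-positive and EGFP-negative cells, with each copy's percentage of the sum. The bars are of nearly equal height, 37.6 FPKM in EGFP-positive and 36.0 FPKM in EGFP-negative cells, while gfra1b takes 7.76% of the EGFP-positive and 34.03% of the EGFP-negative bar.

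Other gene pairs named in the same way were compared as a background. The log2 ratios of gfra1a and gfra1b lay 2.28 apart. Of 376 other pairs whose symbols end in a number followed by a or b, with both genes above 0 in both libraries and counted, 13.0% lay at least as far apart, and the median distance was 0.91. Over all 535 other pairs counted, genes at 0 in 1 library included, 29.3% lay at least as far apart, and the median distance was 1.29. In 46.8% of the 376 pairs the log2 ratios had opposite signs. Pairs were formed from symbols, and their descent from 1 ancestral gene was not checked.

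In the reference gene table of assembly GRCz12tu, the span of gfra1a overlaps 6 other genes, 2 of them protein-coding (atrnl1a and apcs). Gfra1b and phox2bb each overlap 1 noncoding gene, and ret, phox2a and phox2ba overlap none. The build of the deposited values is Zv9, and whether reads were counted by strand is not given in the sources used here. The gfra1a and gfra1b values are therefore uncertain to the extent that reads were shared with overlapping genes.

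The transcription factor gene phox2a stood at 4.002 FPKM in EGFP-positive cells and was listed at 0 in EGFP-negative cells, a log2 ratio of 2.32. With a pseudocount of 0.1 FPKM the ratio was 5.36 and with 5 FPKM it was 0.85, under the 2-fold threshold. Such a pattern was frequent at this level. Of 1634 other genes within 2-fold of the phox2a level in EGFP-positive cells, 21.6% were listed at 0 in EGFP-negative cells. Among genes of 128 to 256 FPKM the share was 2.22%. Phox2a ranked 7313th of the 14428 rows in EGFP-positive cells, and 13.4% of the genes above 0 there were at or below its level.

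Phox2ba and phox2bb, which encode homeodomain factors of the same family, were listed at 0 in both libraries. Of the 14428 rows, 4531 were at 0 in both. How many counts a value of 0 could hide is unknown, because the FPKM values carry no depth, and so the 3 PHOX2 genes cannot be ranked among themselves beyond phox2a being above 0.

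**Figure D4:**
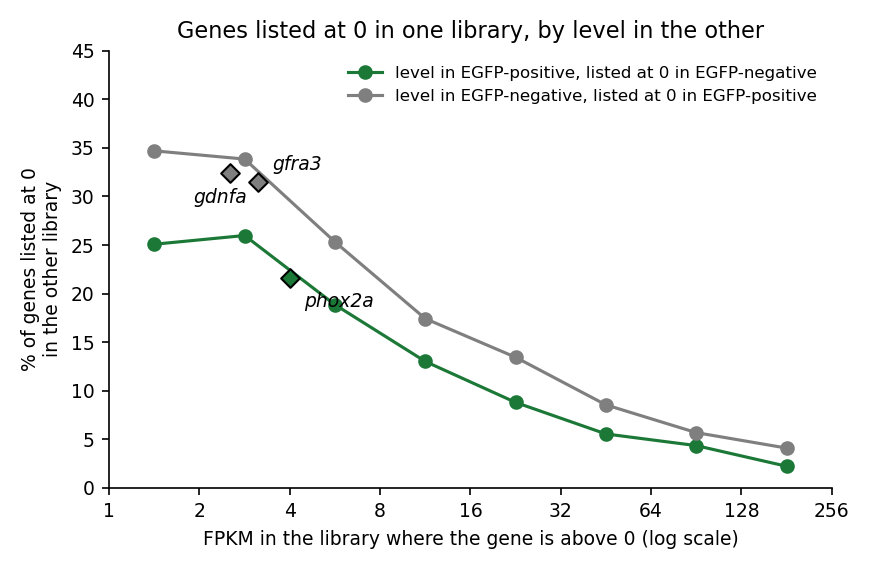
The y axis gives the percentage of genes listed at 0 in the other library, by FPKM level (log scale, bins of 2-fold) in the library where they were above 0, for levels in the EGFP-positive (green) and the EGFP-negative library (grey). Diamonds place phox2a, gdnfa and gfra3 at their own level and at the percentage for genes within 2-fold of it, 21.6%, 32.4% and 31.4%.

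Of the other genes of the GDNF family, the table held 4, and 2 reached 1 FPKM (gdnfa and gfra3), both in EGFP-negative cells alone. The ligand gene gdnfa was listed at 0 in EGFP-positive cells and stood at 2.54 FPKM in EGFP-negative cells. Gfra3, a co-receptor gene for the related ligand artemin in mammals, was listed at 0 in EGFP-positive cells and stood at 3.13 FPKM in EGFP-negative cells. Their calls were fixed by these values of 0. At the levels of gdnfa and gfra3, 32.4% and 31.4% of genes were listed at 0 in EGFP-positive cells.

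Ncam1a and ncam1b encode a neural cell adhesion molecule that binds GDNF together with GFRA1 without RET in mammals, and are not of the GDNF family. Ncam1a stood at 8.33 FPKM in EGFP-positive cells and 28.3 FPKM in EGFP-negative cells, 3.39-fold lower. Ncam1b stood at 5.52 FPKM in EGFP-positive cells and 16.9 FPKM in EGFP-negative cells, 3.07-fold lower. Both were at least 2-fold lower, where 16.5% of all genes above 0 in both libraries were. Both copies thus differed in the same direction and by a similar amount, unlike the gfra1 copies. Over the list of these 4 counted genes, gdnfa, gfra3, ncam1a and ncam1b, the median log2 ratio was -1.74. The co-receptor genes gfra2a and gfra4 were listed at 0 in both libraries.

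Genes that carry or dampen the signal of receptor kinases such as RET inside the cell showed no common direction. Of 21 counted, 3 were at least 2-fold higher, 3 lower and 15 between, where 22.9% of all genes were higher and 26.5% lower, and the median log2 ratio was -0.19. Of the 19 above 0 in both libraries, 3 were higher and 1 lower (17.8% and 16.5% of all such genes were). Their median was -0.01. The higher ones in EGFP-positive against EGFP-negative cells were pik3r3a, a regulatory subunit of phosphoinositide 3-kinase (49.8 against 10.99 FPKM), the kinase gene src (62.6 against 16.9 FPKM) and irs2a, an insulin receptor substrate listed as zgc:56306 (14.4 against 3.49 FPKM). The lower one of these was frs2a, a docking protein of receptor kinases (9.17 FPKM in EGFP-positive and 36.2 FPKM in EGFP-negative cells). Dok1b (11.8 FPKM) and shc2 (1.14 FPKM), also adaptors, were above 0 in EGFP-negative cells and listed at 0 in EGFP-positive cells. Levels in EGFP-positive against EGFP-negative cells were nearly equal for the feedback inhibitor genes spry1 (21.4 against 21.5 FPKM) and spry2 (92.1 against 85.7 FPKM).

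Regulators of enteric crest other than the 6 genes were divided. Of 22 counted, 8 were at least 2-fold higher (22.9% of all genes were) and 6 lower (26.5% of all genes were), with a median log2 ratio of -0.23. Of the 19 above 0 in both libraries, 6 were higher and 5 lower (17.8% and 16.5% of all such genes were). Their median was -0.45. The crest markers that checked the sort, sox10, foxd3 and tfap2a, are on this list and among the higher genes in both counts. Besides sox10 and foxd3, the proneural factor gene ascl1b was higher, at 19.2 FPKM in EGFP-positive and 2.39 FPKM in EGFP-negative cells. Ednrba, an endothelin receptor gene listed as ednrb1a (10.7 FPKM), was above 0 in EGFP-positive cells and listed at 0 in EGFP-negative cells. The same held for tlx2, an enteric homeobox gene in the mouse (5.94 FPKM). The endothelin-converting enzyme gene ece1 was lower, at 3.68 FPKM in EGFP-positive and 30.5 FPKM in EGFP-negative cells. Ascl1a was listed at 0 in EGFP-positive cells and stood at 6.77 FPKM in EGFP-negative cells. Within 2-fold of the tlx2 level, 18.2% of genes were listed at 0 in EGFP-negative cells. Within 2-fold of the ascl1a level, 22.5% were listed at 0 in EGFP-positive cells. The homeobox genes meis1b, listed as meis1 (99.5 against 100.4 FPKM), and meis2b (50.1 against 43.4 FPKM) were nearly equal in EGFP-positive against EGFP-negative cells.

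Genes of sympathetic neurons showed no common direction. Of 25 rows, 18 were counted, of which 2 were at least 2-fold higher (22.9% of all genes were) and 7 lower (26.5% of all genes were). Of the 7 lower, 4 were at 0 in EGFP-positive cells. Over the 13 genes above 0 in both libraries, 1 was higher and 3 lower (17.8% and 16.5% of all such genes were). The median log2 ratio was -0.16, and 0.05 over these 13. Th and th2, the tyrosine hydroxylase genes, dbh, the enzyme gene that makes noradrenaline, and ddc were listed at 0 in both libraries. Hand2, a factor of sympathetic and enteric neurons, stood at 2.55 FPKM in EGFP-positive cells and 17.5 FPKM in EGFP-negative cells. Which cells of the EGFP-negative fraction held hand2 was not tested. Prox1a stood at 12.3 FPKM in EGFP-positive and 65.3 FPKM in EGFP-negative cells. Lmo1 (15.8 FPKM) and the vesicular monoamine transporter gene slc18a2 (8.43 FPKM) were above 0 in EGFP-negative cells and listed at 0 in EGFP-positive cells. Tfap2b (6.92 FPKM) was above 0 in EGFP-positive cells and listed at 0 in EGFP-negative cells. Mycn, at 328 against 189 FPKM, sox4a, at 39.8 against 38.4 FPKM, and sox11b, at 68.9 against 72.8 FPKM, lay less than 2-fold apart in EGFP-positive against EGFP-negative cells.

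**Figure D5:**
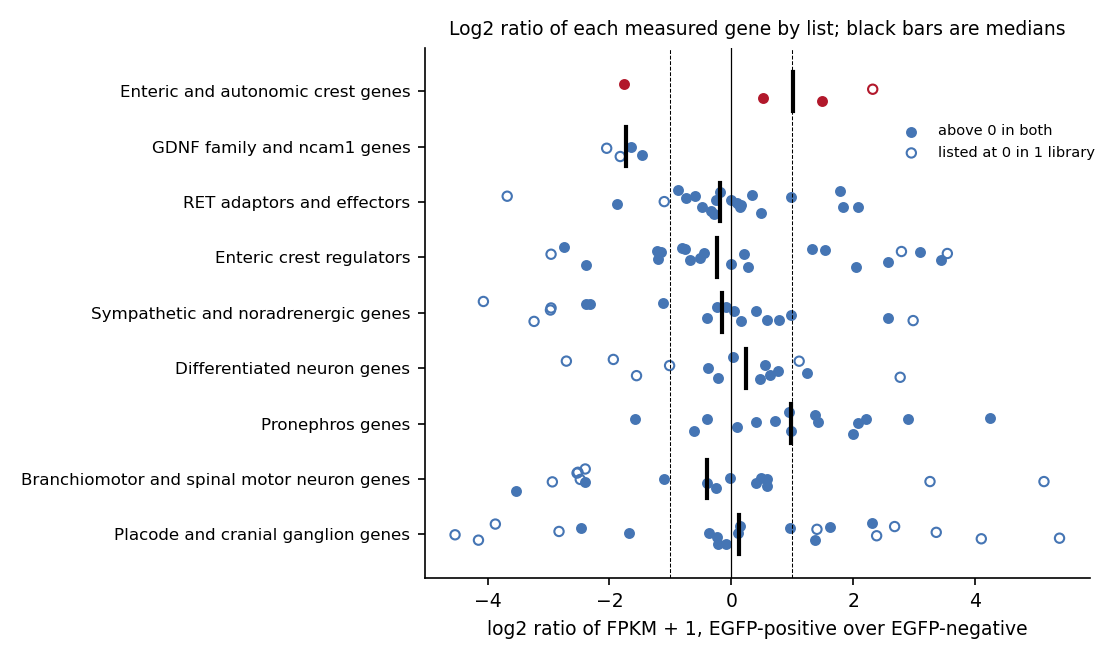
Each point is the log2 ratio of FPKM + 1 (EGFP-positive over EGFP-negative) of 1 gene counted, by list, with filled points above 0 in both libraries and open points listed at 0 in 1 of them. Black bars are medians and dashed lines mark 2-fold. The 4 measured members (red) spread from -1.76 to 2.32, while in the row of GDNF family and ncam1 genes the filled points are ncam1a and ncam1b and the open points gdnfa and gfra3.

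Genes of other cell types in which ret, gfra1 or PHOX2 genes are known were measured in the same libraries. Of 15 pronephros genes counted, 7 were at least 2-fold higher in EGFP-positive cells (22.9% of all genes were) and 1 lower (26.5% of all genes were). Their median log2 ratio was 0.99. All 15 were above 0 in both libraries, where 17.8% of all genes were at least 2-fold higher and 16.5% lower. The list, like the others, was chosen with earlier results of these data known. Their summed level was 421.4 FPKM in EGFP-positive cells and 200.3 FPKM in EGFP-negative cells. Hnf1ba, a factor of the kidney tubule, in EGFP-positive against EGFP-negative cells stood at 34.5 against 0.864 FPKM, slc12a3 at 40.6 against 4.59 FPKM, slc4a2a at 86.7 against 17.9 FPKM and atp1a1a.4 at 22.7 against 4.57 FPKM. The pronephric cadherin gene cdh17 stood at 11.6 FPKM in EGFP-positive cells and 3.72 FPKM in EGFP-negative cells. The 1 gene at least 2-fold lower was osr1, at 12.4 FPKM in EGFP-positive cells and 39.3 FPKM in EGFP-negative cells. Jag2b, listed as jag2, in EGFP-positive against EGFP-negative cells stood at 49.4 against 46.2 FPKM and wt1a at 16.8 against 22.4 FPKM. The part of pronephric cells in the ret and gfra1a values was not tested.

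Of 17 genes counted on the motor neuron list, 2 were at least 2-fold higher (22.9% of all genes were). On it, 8 were lower (26.5% of all genes were), and the median log2 ratio was -0.40. Of the 8 lower, 5 were at 0 in EGFP-positive cells. Of the 10 genes above 0 in both libraries, 3 were lower and 0 higher (16.5% and 17.8% of all such genes were). Their median was -0.14. The summed level was 401.6 FPKM in EGFP-positive cells and 598.8 FPKM in EGFP-negative cells. The largest differences in FPKM on the list were those of tbx20 and nr2f2. Tbx20, a factor of branchiomotor neurons and of the heart, in EGFP-positive against EGFP-negative cells stood at 10.1 against 127 FPKM, nkx6.1 at 10.8 against 61.6 FPKM and nr2f2 at 64.2 against 139.7 FPKM. The markers isl1, isl2a, mnx1 and lhx3 alone summed to 55.4 FPKM in EGFP-positive cells and 44.6 FPKM in EGFP-negative cells, in the opposite direction. Isl1 (21.9 against 14.2 FPKM), mnx1 (19.8 against 13.8 FPKM), isl2a (13.7 against 16.6 FPKM) and tbx2a (100.0 against 101.5 FPKM) lay less than 2-fold apart in EGFP-positive against EGFP-negative cells. Olig4 (34.1 FPKM) and lhx4 (8.60 FPKM) were listed at 0 in EGFP-negative cells, and nkx6.2 (6.66 FPKM) in EGFP-positive cells. The motor neuron marker lhx3 and olig2 were at 0 in both. Whether olig4 marks motor neurons here was not tested.

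Placode and cranial ganglion genes were divided, with 9 of 22 counted at least 2-fold higher (22.9% of all genes were), 6 lower (26.5% of all genes were) and a median log2 ratio of 0.13. At 0 were 6 of them in EGFP-negative cells and 4 in EGFP-positive cells. Of the 12 above 0 in both libraries, 3 were higher and 2 lower (17.8% and 16.5% of all such genes were). Their median was 0.01. The summed level of the list was 474.5 FPKM in EGFP-positive cells and 401.9 FPKM in EGFP-negative cells. Of these sums, pax2a alone supplied 94.4 FPKM in EGFP-positive cells and 35.7 FPKM in EGFP-negative cells. Pax2a is also on the pronephros list and in its counts and sums. Six4b, in EGFP-positive against EGFP-negative cells, stood at 53.2 against 9.87 FPKM and dlx3b at 41.3 against 12.7 FPKM, while six4a stood at 3.85 against 25.8 FPKM and neurod4 at 20.3 against 67.3 FPKM. The neurogenic factor gene neurog1 (40.9 FPKM) was listed at 0 in EGFP-negative cells, and neurod1, listed as neurod (16.8 FPKM), and pax2b (22.2 FPKM) in EGFP-positive cells. Drgx (50.2 against 53.4 FPKM) and six1b (45.1 against 41.7 FPKM) were nearly equal in EGFP-positive against EGFP-negative cells.

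Differentiated neuron genes had 3 of 14 counted at least 2-fold higher (22.9% of all genes were) and 4 lower (26.5% of all genes were), with a median log2 ratio of 0.25, and 13 more rows were at 0 in both libraries. All 4 lower ones were at 0 in EGFP-positive cells. Of the 8 genes above 0 in both libraries, 1 was higher and 0 lower (17.8% and 16.5% of all such genes were). Their median was 0.51. The summed level of the list was 676 FPKM in EGFP-positive cells and 667 FPKM in EGFP-negative cells. Of these sums, tubb2b alone supplied 402 FPKM in EGFP-positive cells and 467 FPKM in EGFP-negative cells. Dpysl3 stood at 37.1 FPKM in EGFP-positive and 15.1 FPKM in EGFP-negative cells. The pan-neuronal genes elavl3 (111.9 against 76.2 FPKM) and stmn2a (54.0 against 52.9 FPKM), and the tubulin genes tubb5 (35.8 against 20.7 FPKM) and tubb2b, listed as zgc:123194 (402 against 467 FPKM), lay less than 2-fold apart in EGFP-positive against EGFP-negative cells, as did stxbp1a (14.5 against 8.91 FPKM). Tph1b (5.84 FPKM) was listed at 0 in EGFP-negative cells, and snap25a (5.53 FPKM), nefma (2.83 FPKM) and the neuron marker elavl4 (1.02 FPKM) in EGFP-positive cells. The part of motor, placodal and other neurons in the levels of the 6 genes was not tested.

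By distance on the log2(FPKM + 1) scale over the 2 libraries, the genes nearest to ret in EGFP-positive against EGFP-negative cells were zgc:92046 (21.9 against 7.04 FPKM) and prkrip1 (21.5 against 6.72 FPKM). Those nearest to gfra1a in EGFP-positive against EGFP-negative cells were otx1a (34.1 against 23.7 FPKM) and cadm1a (35.4 against 23.8 FPKM), and those nearest to gfra1b were thap11 (2.83 against 12.2 FPKM) and ubxn6 (2.93 against 12.6 FPKM). With 2 libraries, likeness covers 1 pair of values per gene.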

How the data were processed

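The authors deposited 1 table of FPKM values with 1 column per library. Columns were matched to libraries by the sample descriptions, and every column of values matched a sample. Per the submitters' processing notes, the tools were cutadapt, TopHat2 (2.0.11) and Cufflinks (2.2.1), with genome build Zv9. Their settings, the annotation and any scaling between libraries were not given in the sources used. Sequencing depth is unknown: the ratios of 712 low genes (under 6 FPKM in each library, none at 0) did not fall on steps, with at most 1.54% in any log2 interval of 0.02, so whole reads were not recovered and no counting interval is given.

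Ratios used a pseudocount of 1 FPKM, which understates those of low genes, a minimum of 1 FPKM in either library and a threshold of 2-fold. Calculations used Python 3.11.15 with pandas 2.3.3 and were tested on simulated data. The members and the 8 further lists were chosen with earlier results of these data known, and the lists share some genes. List symbols without a row were looked up among older symbols in the reference gene tables, and genes with no row were left out. Named were all 6 members, every gene with a row of the list of GDNF family and ncam1 genes, and of each other list the 4 largest differences at 5 FPKM or more and above 0 in both libraries, the 3 highest genes at 0 in 1 library and the 2 most equal genes. The 2 genes nearest to each member above 0 in both libraries were also named. Markers (sox10, foxd3, tfap2a, cdh17, isl1, isl2a, mnx1, elavl3, elavl4, lhx3), and th, th2, dbh and ddc, which were at 0 in both libraries, were named besides. So were osr1, the pronephros gene at least 2-fold lower, olig2, listed at 0 in both libraries, and pax2a, on the pronephros and placode lists. Alternatives changed the pseudocount, scaling and minimum. Sequences of the genes are not shown.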

Additional observations from a re-analysis of the deposited data

How the results depend on the processing

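With no replicate, a value counted as moved when it changed by more than 1.5-fold. Ret kept a log2 ratio of 1.14 to 1.60 over 4 alternatives of pseudocount and scaling, and gfra1a 0.36 to 0.54. Gfra1b ranged from -2.03 to -1.12, and the value of -1.12, with a pseudocount of 5 FPKM, counted as moved. Phox2a, at 0 in the EGFP-negative library, had 5.36 with a pseudocount of 0.1 FPKM and 0.85 with 5 FPKM, by construction. The count of members at least 2-fold higher was 1 (ret) in place of 2 with a pseudocount of 5 FPKM, with a minimum of 5 FPKM, and among genes above 0 in both libraries, an alternative chosen after seeing the data. The count of members lower was 1 throughout. The median of the list of GDNF family and ncam1 genes was -3.24 with a pseudocount of 0.1 FPKM and -0.88 with 5 FPKM, and that of the pronephros list 0.25 with no minimum, which adds genes at or near 0. Of 56 list medians under an alternative, the other 53 moved by less than 1.5-fold. The placode median changed sign, to -0.04, with equal sums without rn7sk, a scaling that put the median of genes above 0 in both libraries at -0.13 in place of 0.03. The sympathetic median also changed sign, from -0.16 to 0.05, over genes above 0 in both libraries. No paired analysis was possible because each group has 1 library. Without replicates or depth, differences cannot be told from error. This holds for small ones, as in gfra1a, and for larger ones, as in ret and gfra1b.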

Other observations

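Several other pairs of gene copies on the lists differed in opposite directions, like the gfra1 pair. These were picked out after their values were seen and were not tested. Zeb2a stood at 122 FPKM in EGFP-positive cells and 41.6 FPKM in EGFP-negative cells, while zeb2b stood at 1.07 FPKM in EGFP-positive cells and 3.77 FPKM in EGFP-negative cells. Pax2a in EGFP-positive against EGFP-negative cells stood at 94.4 against 35.7 FPKM, while pax2b was listed at 0 in EGFP-positive cells and stood at 22.2 FPKM in EGFP-negative cells. Itgb1a, an integrin subunit gene, in EGFP-positive against EGFP-negative cells stood at 120.4 against 47.5 FPKM and itgb1b at 204 against 326 FPKM. Insm1a stood at 1.68 FPKM in EGFP-positive and 0.351 FPKM in EGFP-negative cells, while insm1b was listed at 0 in EGFP-positive cells and stood at 6.83 FPKM in EGFP-negative cells. The zebrafish hoxb5 copies, whose mouse counterpart acts in vagal enteric crest, lay on the same side. In EGFP-positive against EGFP-negative cells, hoxb5a stood at 30.1 against 71.4 FPKM and hoxb5b at 35.2 against 62.7 FPKM.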
